A study of Apis mellifera with 2 samples.

Results

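Among the nuclei of the bromocriptine library, 400 barcodes stood out by the share of their RNA that came from 4 genes, LOC409787, LOC102656658, LOC724252 and LOC102655870, and these barcodes are described here as Hbg3-rich nuclei. They were chosen by rank from the 19945 barcodes of that library with 200 to 5000 detected genes, the rank being the summed UMIs (unique molecular identifiers, which mark captured RNA molecules) of the 4 selection genes over all UMIs of the barcode. The levels of the 4 selection genes in these nuclei are therefore a description and not a result. The working label of the group, gland-like, was set against its markers. Hbg3 and Mrjp6 were over 4-fold higher in the 400 nuclei than in the other barcodes of the library. Mrjp1, Mrjp2, Mrjp3 and Mrjp7, which also belong to the gland markers, were not higher in that comparison in counts per 1000000 UMIs (CPM). Against barcodes with many UMIs and few of the selection genes, described below, these 4 Mrjp genes were higher, with a log2 ratio of 0.75 for their sum. That comparison uses barcodes chosen in part by the selection genes. In the barcodes ranked next, 401 to 1200, the sum was at 6623 CPM, above the 3658 CPM of the 400 nuclei. Other planned gland markers, such as Gox and alpha-amylase, gave no match by symbol and were not assessed. They may be present under an identifier alone, so their levels in the 400 nuclei are not known here. The label was therefore left undecided, and no gland name is used for the 400 nuclei below.

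Hbg3 encodes an alpha-glucosidase that splits sucrose and is known from the hypopharyngeal glands, paired glands in the head of worker bees. These glands are known to release the major royal jelly proteins encoded by the Mrjp genes while workers nurse brood, and to turn to enzymes that act on nectar sugars when workers forage. The Mrjp genes lie side by side in the bee genome and are relatives of the yellow genes of insects, and Mrjp transcripts have also been found in bee brains.

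The samples were pooled brains of honeybee (Apis mellifera) foragers, dissected free of tracheae, ocelli and compound eyes, from which nuclei were extracted mechanically and sequenced with the 10x Genomics 3′ chemistry. The BRC library came from bees given bromocriptine, a drug that activates D2-like dopamine receptors, and the ddH2O library from bees given water alone. Sample titles describe the bees as fed whereas the protocol describes a spray over the body, and the design text gives 15 brains per library, whereas the study's methods describe a larger pool from several colonies. Each condition had 1 library, so nuclei are not replicates, no test across samples was possible, and all intervals in parentheses are 95% intervals that cover counting error only.

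The files hold 76531513 UMIs over 20000 barcodes in BRC and 77047419 UMIs over 20000 barcodes in ddH2O. The BRC file header names Cell Ranger 7.2.0 and the ddH2O header 7.0.1, and the median barcode had 2109 UMIs in BRC and 3327 in ddH2O, so treatment, depth and software version cannot be told apart. The libraries had 120 barcode sequences in common, 3 of them among the Hbg3-rich nuclei, and leaving these out changed none of the main values beyond counting error.

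The 400 nuclei were the upper part of a larger set of barcodes and not a set of their own. The selection genes took 1.28% to 3.31% of the UMIs of a nucleus (median 1.48%), against a median of 0.0246% in the other 19545 BRC barcodes, of which 8916 held no UMI of these genes. Just inside the threshold, rank 399 had a share of 1.281% and rank 400 a share of 1.28086%. Just outside it, rank 401 had 1.27997% and rank 402 had 1.27963%. The share fell smoothly to about rank 1200, where 1204 BRC barcodes (6.04%, 5.71 to 6.38) were at or above 0.6%, and 375 barcodes lay between 0.2% and 0.6%. The other barcodes therefore included 804 with a share of at least 0.6%, which carried 21.8% of their UMIs. In ddH2O, 0 of 19999 barcodes reached the share of rank 400, which allows a share of barcodes of up to 0.0150%, and the highest value there was 0.591%.

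**Figure D1:**
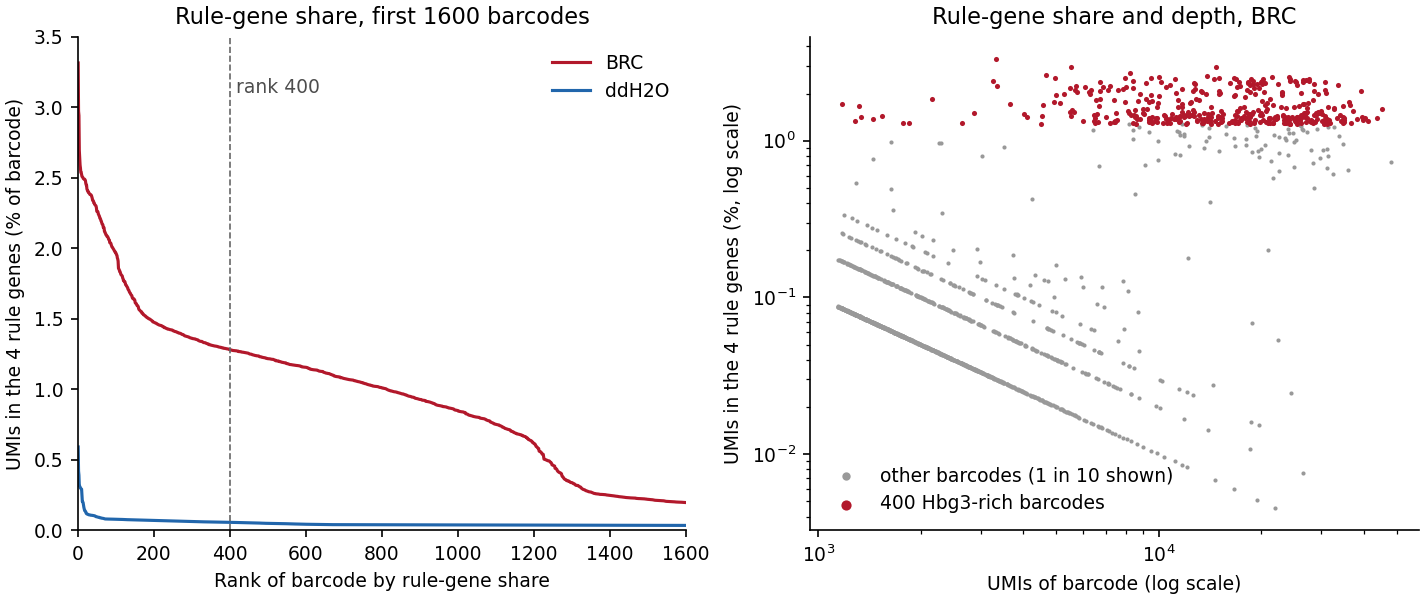
Left, share of UMIs in the 4 selection genes (%) against the rank of the barcode by that share, for the first 1600 barcodes of BRC (red) and ddH2O (blue), with a dashed line at rank 400. Right, the same share against the UMIs of the barcode, both on log scales, for the 400 Hbg3-rich nuclei (red) and 1 in 10 of the other BRC barcodes with a UMI of these genes (grey). The BRC curve passes rank 400 without a step and drops after about rank 1200, and most of the 400 nuclei lie among the deepest barcodes.

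The Hbg3-rich nuclei were deep. They had a median of 16550 UMIs and 3314.5 genes, against 2069 UMIs and 1055 genes in the other BRC barcodes, and held 9.37% of the UMIs of all kept barcodes. Of the 400, 295 had over 10000 UMIs, which 1369 of all kept barcodes had, and 8 had fewer UMIs than the median other barcode. The 800 barcodes of ranks 401 to 1200 were as deep (median 17152 UMIs). Genes per UMI were low for their depth, and the log10 number of genes over the log10 number of UMIs passed 0.85, the filter stated by the study, in 127 of 400 nuclei (31.8%) and in 18569 of the other barcodes (95.01%). Mitochondrial RNA took a median of 0.0202% of their UMIs and 0.0870% in the other barcodes, and all 400 nuclei passed the 5% limit of the study. Whether depth has a part in the values below was not tested as such. Values are also given against 398 deep barcodes, chosen after the data were seen. These had under 0.2% of UMIs in the selection genes and at least 9786 UMIs, the lower quartile of the 400 nuclei. As they were chosen by both depth and a low selection share, ratios against them do not single out depth.

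Within the 400 nuclei each selection gene varied widely. All 4 were detected in 394 nuclei, 3 of them in 5 nuclei and 2 in 1 nucleus. LOC409787 ranged from 5.12 to 166 UMIs per 10000 UMIs of the nucleus (median 72.2) and contributed 40.1% of the summed selection UMIs. The long noncoding RNA LOC102656658 ranged from 0 to 133 (median 56.7) and LOC724252 from 5.65 to 103 (median 29.1), while the long noncoding RNA LOC102655870 ranged from 0 to 33.1 (median 10.1). The 400 nuclei held 45.5% of all LOC409787 UMIs in kept barcodes, 43.1% of LOC102656658, 30.7% of LOC724252 and 34.4% of LOC102655870.

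In the Amel_HAv3.1 annotation of RefSeq, LOC409787 is a protein-coding gene on LG6 from 4479594 to 4586178, and Hbg3 begins 16260 bases beyond its end, at 4602439 to 4613520. AGLU2, an alpha-glucosidase gene with the synonym Hbg1, follows at 4618778 to 4626779. LOC724389, on LG6 from 4500753 to 4655231, overlaps LOC409787, Hbg3 and AGLU2, and was at 2444 CPM in the Hbg3-rich nuclei and 667 CPM in the other barcodes. The table used here gives no strand, so reads of overlapping genes may be counted for either and cannot be told apart. LOC102656658 (LG7, 3642775 to 3659414) lies within LOC551130, which was at 1384 CPM and 439 CPM. LOC724252 lies on LG16 from 4280665 to 4291655 with no overlapping gene. LOC102655870 (LG6, 14701684 to 14731851) has the long noncoding RNA LOC102654995 at a distance of 879 bases and LOC113218859 at 17803 bases, and both of these were among the 15 genes with the highest ratios given further below.

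Hbg3 was detected in all 400 nuclei and had the highest ratio of the alpha-glucosidase genes. Its level per nucleus ran from 7.73 to 247 UMIs per 10000 with a median of 103, and the middle of the nuclei, from the lower to the upper quartile, lay between 57.3 and 141. In summed counts Hbg3 was at 9708 CPM (9635 to 9782, 67335 UMIs) in the Hbg3-rich nuclei and at 2184 CPM in the other barcodes, a log2 ratio of 2.15 (2.14 to 2.17). The 10 nuclei with the most UMIs of Hbg3 held 7.80% of its UMIs in the group, so no few nuclei carried the value. AGLU2 was at 62.9 CPM (57.1 to 69.0) against 42.9 CPM, a log2 ratio of 0.55 (0.40 to 0.70), and was higher in the glia-marked barcodes described below, at 129 CPM (117 to 141). Hbg2, the remaining alpha-glucosidase gene of this name, had 2 UMIs in the 400 nuclei.

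RNA of Hbg3 was found in nearly every barcode of the BRC library, including those marked as other cell types. After each barcode was thinned at random to 1000 UMIs, with 0 barcodes left out, an Hbg3 UMI was found in 98.8% of the Hbg3-rich nuclei (97.1 to 99.6) and in 71.4% of the other barcodes (70.8 to 72.0). It was found in 67.4% (66.1 to 68.8) of 4665 neuron-marked barcodes, which held UMIs of nSyb, Syt1 and fne but none of repo, and in 71.8% (69.4 to 74.1) of 1457 glia-marked barcodes, which held repo and none of those 3 genes. Median depth was 2356 UMIs in the neuron-marked and 1778 in the glia-marked barcodes. Unthinned shares were 100%, 92.2%, 92.2% and 90.9% in the same order. The share in the other barcodes did not exceed the higher of the marked shares, but the marked barcodes are themselves part of the other barcodes. They also included barcodes of high selection share, up to 1.278% in the neuron-marked and 1.280% in the glia-marked set. Their summed selection genes were at 1355 and 990 CPM, against 328 CPM in the other barcodes under a 0.2% selection share. The marked barcodes therefore give no clean background, and whether Hbg3 outside the Hbg3-rich nuclei is background of the library was not tested. Against the deep barcodes of low share, where Hbg3 was at 438 CPM, its log2 ratio was 4.47 (4.41 to 4.52).

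Of the 9 Mrjp genes, Mrjp6 and Mrjp4 were higher in the Hbg3-rich nuclei by over 2-fold, and Mrjp1, the gene of the most abundant protein of royal jelly, was lower. Mrjp6 was at 4756 CPM (4705 to 4808) against 1099 CPM in the other barcodes, a log2 ratio of 2.11 (2.09 to 2.13). Mrjp4 was at 617 CPM against 263 CPM with a log2 ratio of 1.23 (1.18 to 1.28), and Mrjp5 at 1805 CPM against 1372 CPM with a log2 ratio of 0.40 (0.37 to 0.42). These 3 genes were higher under every setting tried.

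Mrjp1 was at 2568 CPM against 3806 CPM, a log2 ratio of -0.57 (-0.59 to -0.55). Mrjp2 was at 625 CPM against 709 CPM, Mrjp3 at 338 CPM against 435 CPM and Mrjp7 at 128 CPM against 153 CPM, with log2 ratios of -0.18, -0.36 and -0.26. The median of all 9430 genes tested was itself -0.31, and relative to that median Mrjp1 was at -0.26, Mrjp2 at 0.12, Mrjp3 at -0.06 and Mrjp7 at 0.05, so that the sign of Mrjp2 and Mrjp7 turned with the scaling. Mrjp8 and Mrjp9 had 37 and 57 UMIs and log2 ratios of -1.08 and -1.04. The summed Mrjp genes were at 10850 CPM against 7865 CPM, a log2 ratio of 0.46 (0.45 to 0.48). Of the 9 genes, 1 passed a fold of 4, where 0.414% of all genes tested did so in this direction. Mrjp genes are near-identical copies over parts of their length, and how reads were split among them is uncertain.

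Set against the 398 deep barcodes of low share, Mrjp1 to Mrjp7 were each higher in the Hbg3-rich nuclei. The log2 ratio was 4.26 for Mrjp6, 3.45 for Mrjp4, 1.82 for Mrjp5, 1.57 for Mrjp3, 1.12 for Mrjp2, 0.81 for Mrjp7 and 0.60 for Mrjp1. Mrjp6 and Mrjp4 passed a fold of 4, as 2.4% of 5873 genes tested did in this direction and 15.4% in the other. The direction given for Mrjp1, Mrjp2, Mrjp3 and Mrjp7 therefore rests on which barcodes of the library are compared. Mrjp8 and Mrjp9 were lower against these barcodes too, with log2 ratios of -1.51 and -2.88.

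**Figure D2:**
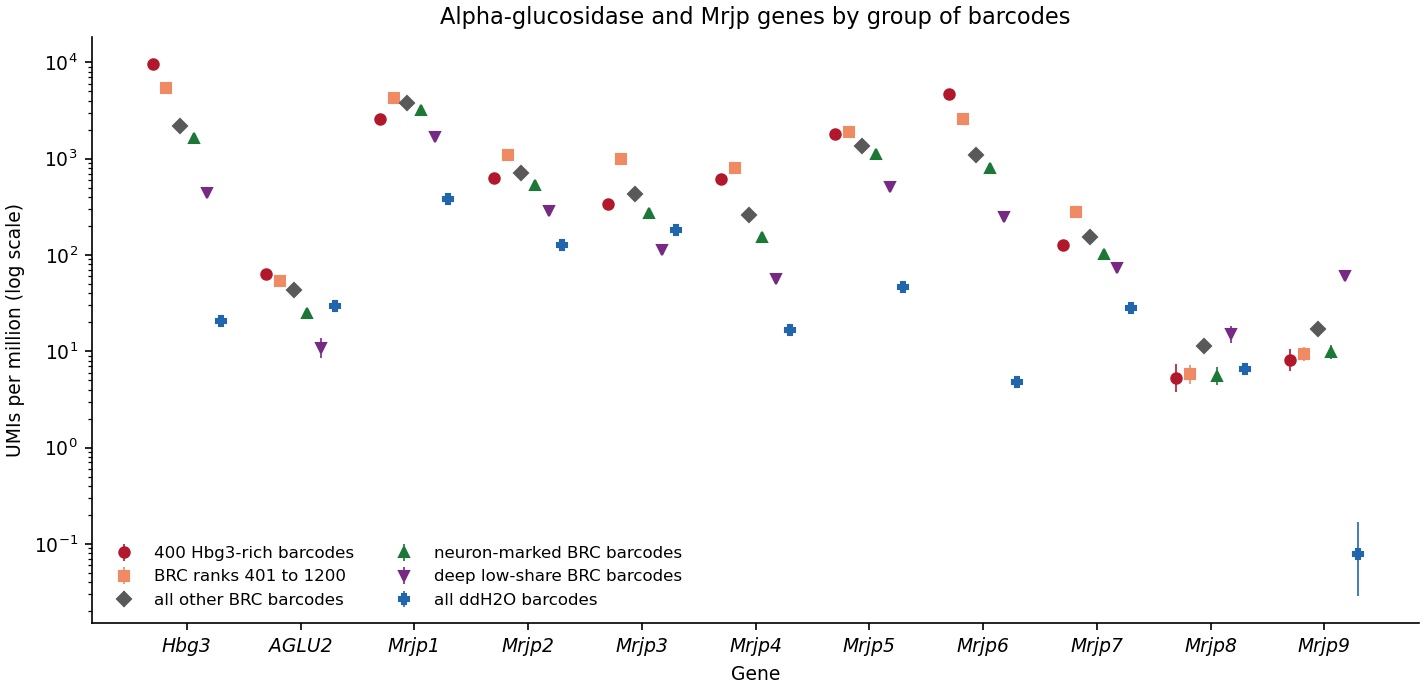
CPM (log scale) of Hbg3, AGLU2 and Mrjp1 to Mrjp9 in the 400 Hbg3-rich nuclei, BRC ranks 401 to 1200, all other BRC barcodes, neuron-marked BRC barcodes, the 398 deep BRC barcodes of low share and all kept ddH2O barcodes. Points are levels from summed counts and bars are 95% Poisson intervals for counting error. Hbg3 and Mrjp6 are highest in the 400 nuclei, whereas Mrjp1, Mrjp2, Mrjp3, Mrjp4, Mrjp5 and Mrjp7 are highest in ranks 401 to 1200.

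Pooled over each group, Mrjp6 had a proportion to Hbg3 that differed less between groups than that of Mrjp1 or Mrjp3. For each Hbg3 UMI there were 0.490 Mrjp6 UMIs in the Hbg3-rich nuclei, 0.478 in ranks 401 to 1200, 0.494 in neuron-marked barcodes and 0.531 in glia-marked barcodes. Within the 400 nuclei the proportion was not constant, since Mrjp6 was 2.66-fold and Hbg3 1.82-fold higher in ranks 1 to 150 than in ranks 151 to 400. Mrjp1 had 0.265 UMIs per Hbg3 UMI in the Hbg3-rich nuclei, 0.779 in ranks 401 to 1200, 1.94 in neuron-marked and 2.52 in glia-marked barcodes. Mrjp3 had 0.0348, 0.182, 0.169 and 0.232 in the same order. LOC409787 went the other way, with 0.677 and 0.616 in the first and second of these groups and 0.293 and 0.184 in the marked barcodes. As it is a selection gene, its proportion by group is shaped by the selection. In the other barcodes under a 0.2% selection share, Mrjp6 had 0.533, Mrjp1 3.04, Mrjp3 0.218 and LOC409787 0.0566 UMIs per Hbg3 UMI.

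The barcodes richest in Mrjp genes other than Mrjp6 were mostly not the Hbg3-rich nuclei. When the 19945 kept barcodes were ranked by the share of Hbg3, 212 of the top 400 were Hbg3-rich nuclei by the selection genes, and by the share of Mrjp6 it was 166. By Mrjp4 it was 39, by Mrjp3 17, by Mrjp2 6, by Mrjp7 6 and by Mrjp1 and Mrjp5 2 each, where the 400 nuclei make up 2.01% of the kept barcodes. The top 400 by Mrjp1 had a median of 1798 UMIs, and 358 of them had under 0.2% of UMIs in the selection genes. In the most extreme barcode the Mrjp genes together took 31.8% of the UMIs, while their median in the Hbg3-rich nuclei was 1.04%. Shares of shallow barcodes scatter widely, so the ranking was repeated among the 1369 barcodes with over 10000 UMIs, 21.5% of which were Hbg3-rich nuclei. Of the top 295 there, 176 (59.7%) were Hbg3-rich nuclei by Hbg3, 147 (49.8%) by Mrjp6, 82 (27.8%) by Mrjp5, 81 (27.5%) by the summed Mrjp genes, 38 (12.9%) by Mrjp3 and 33 (11.2%) by Mrjp1. By Mrjp1, 274 of these 295 had a selection share of at least 0.6%, as 938 of the 1369 had, so the deep barcodes richest in Mrjp1 were mostly of the same larger set but ranked below the 400.

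Along the ranking, Hbg3 and Mrjp6 were highest in the first bins, while Mrjp1, Mrjp2, Mrjp3 and Mrjp7 were higher in ranks 401 to 1200 than in the 400 nuclei and lower again beyond rank 1600. Hbg3 was at 15913 CPM (15648 to 16182) in ranks 1 to 50, 10754 CPM in ranks 101 to 150, 6989 CPM in ranks 151 to 200, 8583 CPM in ranks 201 to 250 and 6928 CPM (6757 to 7103) in ranks 351 to 400. It was at 6319 CPM in ranks 401 to 800 and 1202 CPM beyond rank 1600. Mrjp6 was at 10029 CPM in ranks 1 to 50, 4681 CPM in ranks 101 to 150 and 2601 CPM in ranks 351 to 400. Mrjp3 was at 49.8 CPM (36.1 to 67.1) in ranks 1 to 50, 525 CPM in ranks 151 to 200, 478 CPM in ranks 351 to 400, 1222 CPM in ranks 801 to 1200 and 262 CPM beyond rank 1600. Mrjp1 was at 1489 CPM in ranks 1 to 50 and 3533 CPM in ranks 351 to 400, and at 4357 CPM in ranks 801 to 1200 and 3650 CPM beyond rank 1600.

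**Figure D3:**
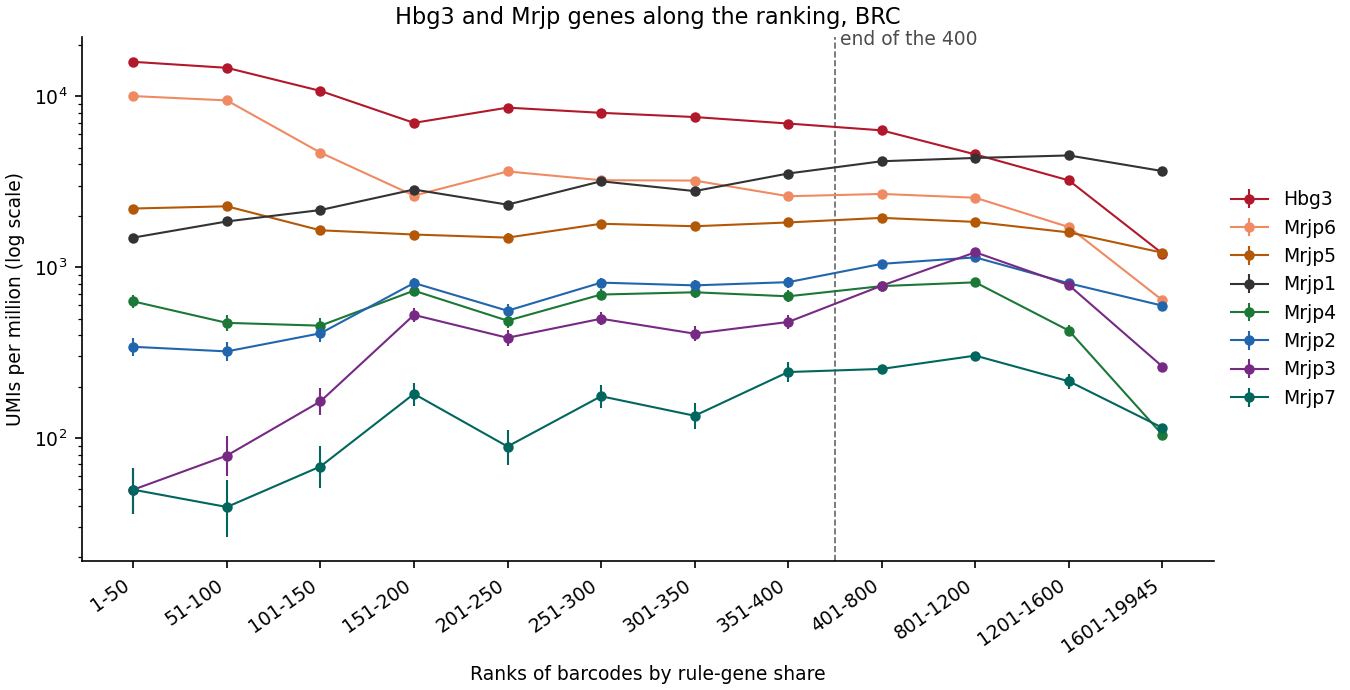
CPM (log scale) of Hbg3 and Mrjp1 to Mrjp7 in bins of BRC barcodes ordered by the share of the 4 selection genes, with 50 nuclei per bin up to rank 400 (dashed line) and wider bins beyond. Points are levels from summed counts and bars are 95% Poisson intervals. Hbg3 and Mrjp6 are highest in the first bins, Mrjp3 and Mrjp7 are lowest there, and Hbg3 and Mrjp6 are lowest beyond rank 1600.

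Most of the fall of Hbg3 and Mrjp6 lay between ranks 51 to 100 and ranks 151 to 200, and ranks 1 to 150 were compared with ranks 151 to 400, a split chosen after the levels were seen. Hbg3 was 1.82-fold and Mrjp6 2.66-fold higher in ranks 1 to 150. In the same ranks Mrjp1 was 1.62-fold, Mrjp2 2.12-fold, Mrjp7 3.16-fold and Mrjp3 4.81-fold lower. Of the selection genes LOC409787 was 1.83-fold and LOC102655870 1.32-fold higher there. LOC102656658 was at 7127 and 4759 CPM, and LOC724252 was at nearly the same level in both (3225 and 3135 CPM). The ranks are ordered by the summed share of these selection genes, so a higher sum in the first ranks is fixed by the ordering and is not a result. Depth was similar, with medians of 14414 and 17220 UMIs. Among 3572 genes with at least 200 UMIs in the 400 nuclei, 2 were over 4-fold higher in ranks 1 to 150 (0.056%) and 5 over 4-fold lower (0.14%), with a median log2 ratio of -0.08. The 2 higher genes were SIFR, the receptor of the neuropeptide SIFamide, at 95.9 CPM against 11.1 CPM, and LOC411746 at 838 CPM against 140 CPM. The 5 lower genes were LOC100577331, LOC100578102, Mrjp3, LOC410207 and LOC726252, of which LOC100577331 was at 12.8 CPM against 77.8 CPM. These genes were named after their values were seen. By likeness to the summed selection genes over the 8 bins of 50 nuclei, the 5 nearest genes were LOC724885, LOC726935, LOC410803, SIFR and LOC411665. Their Pearson r was between 0.980 and 0.989 over 8 bins of 1 library. The bins were ordered by that same sum, and these 5 genes were picked for the highest r among many genes. High values follow from such a choice, so these r values are a description and not a result. Whether the 5 genes follow the selection genes apart from this choice was not tested.

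Over the 400 single nuclei, which share 1 library and in which UMIs per 10000 of different genes share a denominator, Hbg3 correlated with LOC409787 (Pearson r = 0.87) and with Mrjp6 (0.68). It correlated negatively with Mrjp2 (-0.47), Mrjp3 (-0.38) and Mrjp7 (-0.36), and weakly with the log2 UMIs of the nucleus (-0.08). The Mrjp genes that went against Hbg3 went with each other, with r = 0.73 for Mrjp2 and Mrjp4, 0.67 for Mrjp2 and Mrjp7 and 0.65 for Mrjp2 and Mrjp3. LOC102656658, also a selection gene, had r = -0.08 with Hbg3. Choosing nuclei by the sum of the selection genes can by itself lower the correlations among these genes. LOC409787, which went with Hbg3, had r = -0.23 with LOC102656658, -0.26 with LOC724252 and 0.14 with LOC102655870. The value for Hbg3 and LOC102656658 therefore cannot show whether these genes vary together apart from the selection.

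A further pattern within the group involved LOC724252 and a set of genes whose UMIs lay mostly in few of the nuclei. LOC406144 was at 1043 CPM in the Hbg3-rich nuclei and 170 CPM in the other barcodes, and was detected in 53.2% of the nuclei, but 11 nuclei held 50% of its UMIs. LOC406142, LOC411577 and Acph-1 were detected in 52.5%, 70.5% and 43.5%. LOC406144 and LOC406142 had r = 0.95 over the 400 nuclei, LOC406144 and LOC411577 0.83, and LOC411577 and the acid phosphatase gene Acph-1 0.80. LOC724252 had r = 0.67 with LOC406144, whereas Hbg3 had -0.07. The 40 nuclei with the highest share of LOC406144, taken by that value and given as a description, included 35 of the 40 with the highest share of LOC406142, 30 of those for LOC411577 and 29 of those for LOC724252.

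These 40 nuclei held 91.5% of the LOC406144 UMIs of the group, 94.2% of LOC406142, 80.7% of LOC411577, 79.4% of Acph-1 and 82.2% of Apid1, an apidaecin gene, while they held 11.7% of all UMIs. LOC406144 was at 8128 CPM in them and 101 CPM in the other 360, and LOC411577 at 4886 CPM and 155 CPM. Def1, which encodes the antibacterial peptide defensin, was at 2853 CPM and 904 CPM. LOC724252 was at 5761 CPM and 2820 CPM, but LOC409787 was at 6563 CPM and 6568 CPM, and LOC102655870 was lower in the 40 nuclei (643 and 1141 CPM). Hbg3 was at 9353 CPM and 9756 CPM and Mrjp6 at 5168 CPM and 4702 CPM. The 40 nuclei ranged from rank 9 to rank 390 and had a median of 19261 UMIs against 15424 in the other 360.

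**Figure D4:**
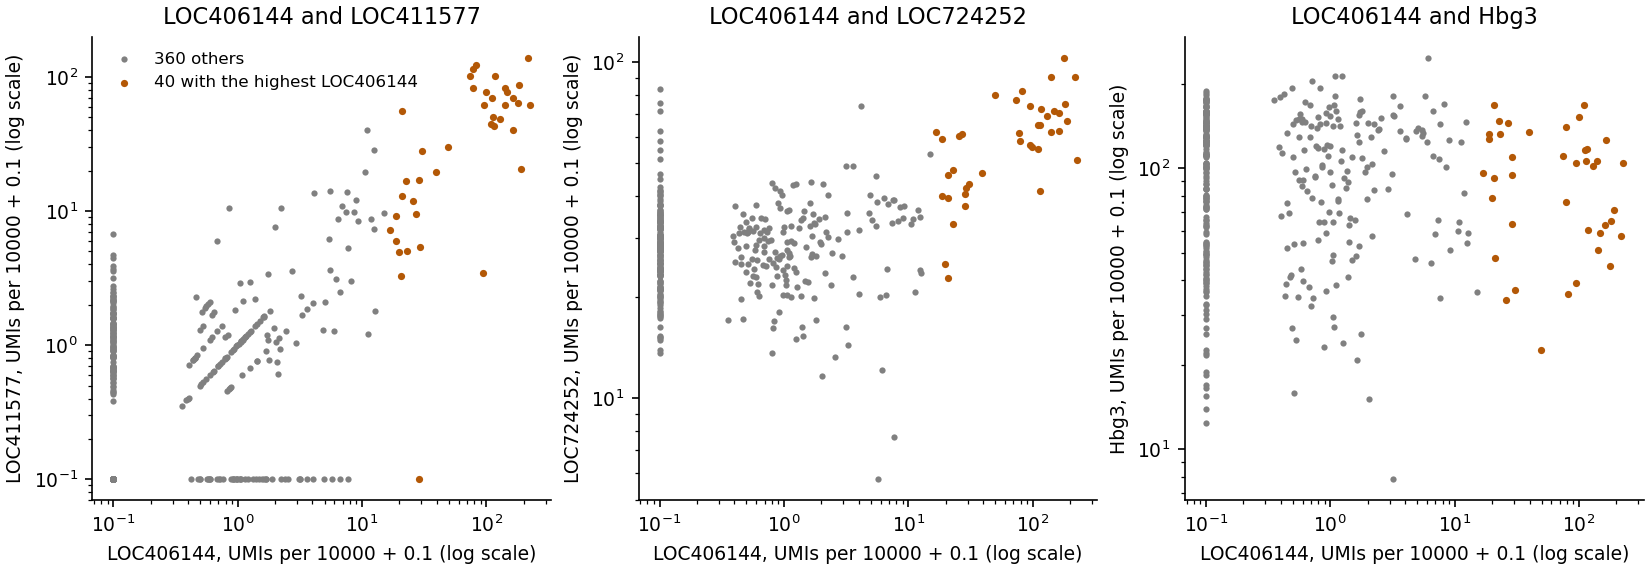
UMIs per 10000 UMIs of each nucleus, plus 0.1, on log scales, for LOC406144 (x axis) against LOC411577, LOC724252 and Hbg3 in the 400 Hbg3-rich nuclei. The 40 nuclei with the highest LOC406144 (brown) are also mostly high in LOC411577 and LOC724252, and are spread over the range of the other 360 (grey) in Hbg3.

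Across all genes, more were past a fold of 4 lower in the Hbg3-rich nuclei than higher. Of 9430 genes with at least 200 UMIs over all kept barcodes, the selection genes left out, 1754 (18.6%) were past a fold of 4, of which 39 (0.414%) were higher and 1715 (18.2%) lower. The call here is a fold and not a test. Since the other barcodes held most of the UMIs, a gene of low level could be tested through them alone but not through the 400 nuclei alone, so the numbers higher and lower are not on an equal footing. The number of higher genes changed with the setting, to 213 when each barcode was given the same weight and to 205 under the filters of the study. Against the deep barcodes of low share 141 genes were higher and 903 lower, so that higher genes were 13.5% of the genes past the fold in place of 2.22%. Long noncoding RNAs made up 13 of the 39 higher genes (33.3%), 276 of the 1715 lower genes (16.1%) and 1017 of all genes tested (10.8%). Some of the 13 lie near selection genes. They include LOC102654995 and LOC113218859 near LOC102655870, and LOC102654769 and LOC113219315 at 6372 and 19090 bases from LOC724252. Whether their levels follow from the selection was not tested. The 20 genes with the most UMIs in the Hbg3-rich nuclei held 19.4% of their UMIs and 9.98% of those of the other barcodes.

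The 15 genes with the highest ratios, found in at least 10% of the nuclei, had log2 ratios from 2.36 to 2.82. At the top stood the long noncoding RNA LOC102656780 on LG9, with 110 CPM against 15.6 CPM, found in 61.2% of the Hbg3-rich nuclei and 2.24% of the other barcodes. LOC726703 was at 380 CPM against 55.3 CPM and overlaps Acph-1, which was at 155 CPM against 28.9 CPM. LOC413907 was at 750 CPM against 137 CPM and LOC724642 at 1516 CPM against 281 CPM, and LOC724642 was found in 98.5% of the nuclei. The remaining members of these 15 were LOC102654995, LOC727324, LOC107964909, LOC406144, LOC113218859, LOC724335, LOC107963999, LOC100578468, LOC100577571 and LOC107965291. LOC726935, one of the 5 genes taken above by likeness to the selection genes along the ranking, was detected in all 400 nuclei at 12272 CPM (12190 to 12355) against 2602 CPM.

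The 10 genes with the lowest ratios had log2 ratios from -5.23 to -6.01. LOC412788 was at 1.87 CPM in the Hbg3-rich nuclei against 121 CPM and sGC-alpha1, which encodes a subunit of soluble guanylyl cyclase, at 0.721 CPM against 45.1 CPM. Dll, the homeobox gene Distal-less, was at 8.80 CPM against 368 CPM. LOC406146 was at 11.8 CPM against 501 CPM, and at 3983 CPM in the deep barcodes of low share. Ks-1, a long noncoding RNA known from Kenyon cells, was at 3.17 CPM against 123 CPM. The others were LOC413698, LOC100576895, LOC726414, LOC411201 and LOC113218944.

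**Figure D5:**
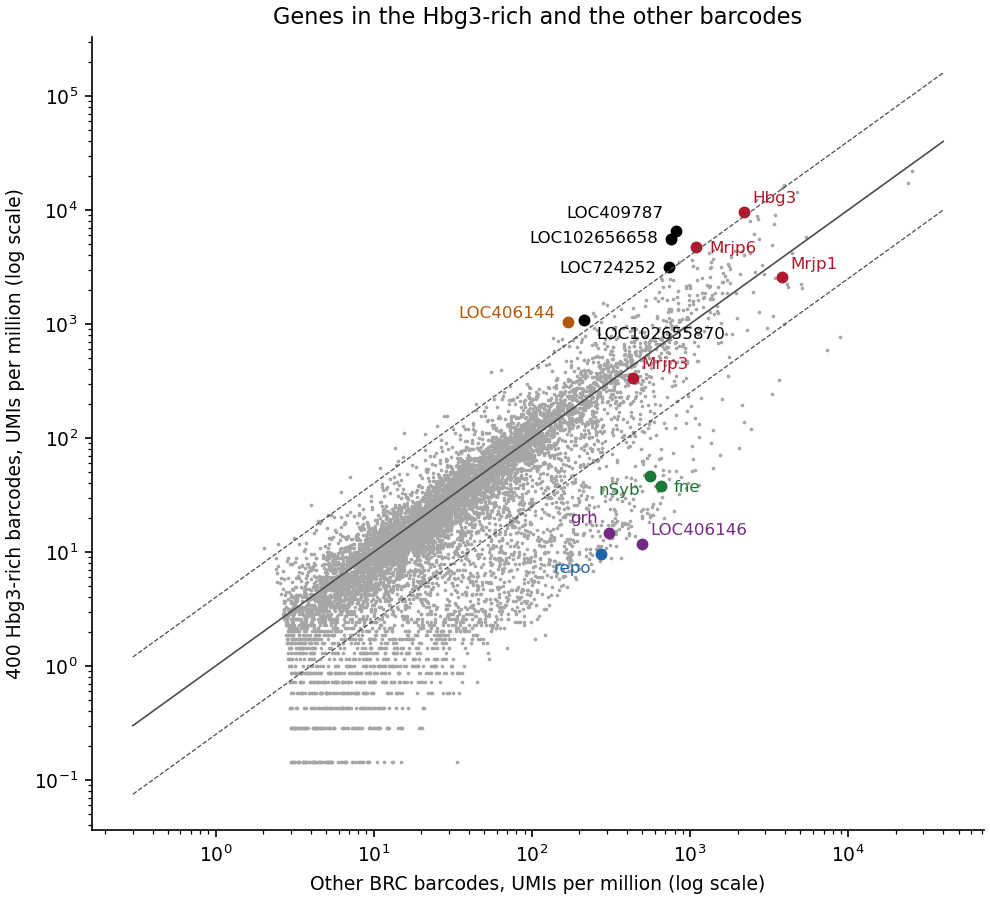
CPM in the 400 Hbg3-rich nuclei against those in the other BRC barcodes for genes with at least 200 UMIs and a UMI in both groups, on log scales. The solid line marks equal levels and the dashed lines a fold of 4. Hbg3 and Mrjp6 lie above the upper dashed line, Mrjp1 and Mrjp3 lie just under the line of equality, and nSyb, fne, repo and grh lie far below the lower one.

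Markers of neurons and glia were low in the Hbg3-rich nuclei. nSyb (LOC408465), a vesicle protein gene of synapses, was at 46.6 CPM against 560 CPM in the other barcodes, Syt1, the gene of a calcium sensor of synaptic vesicles, at 15.4 CPM against 262 CPM and fne (LOC410689), which encodes an RNA-binding protein of neurons in Drosophila, at 37.8 CPM against 655 CPM. The glial genes repo (LOC410151) and bdl (LOC551628) were at 9.66 CPM against 275 CPM and 12.7 CPM against 168 CPM. All 5 were past a fold of 4 lower, and in sum they were at 122 CPM against 1920 CPM, a log2 ratio of -3.98 (-4.07 to -3.88). None was at 0. Of the 400 nuclei 109 (27.2%) held UMIs of at least 2 of the 3 neuronal genes, 146 (36.5%) of none and 42 (10.5%) of repo, and in the shallower other barcodes 49.6% held at least 2. After thinning to 1000 UMIs, nSyb was found in 4.50% of the Hbg3-rich nuclei and 38.3% of the other barcodes, and repo in 1.75% and 16.1%.

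Lists of other brain cell types were low as well, with a pair of exceptions. All 4 photoreceptor genes, all 3 astrocyte genes, 3 of 4 surface glia genes, 3 of 5 optic lobe genes tested, 1 of 2 ensheathing glia genes and 1 of 3 Kenyon cell genes were past a fold of 4 lower, where 18.2% of all genes were. The cortex glia gene zyd did not pass, at 5.91 CPM against 20.6 CPM. Among Kenyon cell genes PLCe (LOC408804) was at 121 CPM against 2436 CPM and trio (LOC408594) at 312 CPM against 403 CPM. Among transmitter genes VAChT (LOC725064) and VGlut (LOC410752) were past a fold of 4 lower. The exceptions were Vmat (LOC408517), the vesicular monoamine transporter gene, at 1155 CPM against 445 CPM, and hth (LOC552079), a homeobox gene listed for the optic lobe, at 8987 CPM against 3440 CPM, with log2 ratios of 1.38 and 1.39. Vmat was found in 98.8% of the Hbg3-rich nuclei and 18.9% of the other barcodes. These shares were not thinned, and median depth was 16550 and 2069 UMIs. The 3 transmitter genes summed, mostly Vmat in the 400 nuclei, were at 1160 CPM there and 1544 CPM in ranks 401 to 1200. The optic lobe list, mostly hth in the 400 nuclei, was at 9011 and 8147 CPM. High levels of these lists were therefore not particular to the 400 nuclei.

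Of genes of tissues outside the brain, some were low and others were not, where 18.2% of all genes tested were past a fold of 4 lower. The epithelial gene grh (LOC411079) was at 14.7 CPM against 306 CPM, the prophenoloxidase gene PPO at 4.90 CPM against 23.6 CPM, and Vg, the gene of the yolk precursor vitellogenin, had 12 UMIs (1.73 CPM against 26.7 CPM). Of the troponin genes 3 of 5 tested were past a fold of 4 lower, and TpnCI was at 38.9 CPM against 27.7 CPM. Of the fat body genes 1 of 2 tested was, and Tsf1, the transferrin gene, was at 168 CPM against 255 CPM. Of the chemosensory protein genes 3 of 5, of the odorant-binding protein genes 9 of 14 tested, and of Crzr, Antp and FAR1 2 of 3 were past that fold lower. Of the yellow genes, relatives of Mrjp, 2 of 3 tested were, and Y-h was at 20.8 CPM against 39.7 CPM.

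The few genes of protein secretion and synthesis that were matched by symbol did not stand out. Other genes planned for these lists could not be matched, so neither process was assessed as a whole. None of the 3 secretory genes matched by symbol passed a fold of 4. STT3B, a subunit of the enzyme that attaches sugars to new proteins, was at 101 CPM against 69.3 CPM and Hsc70-3, a chaperone of the endoplasmic reticulum, at 204 CPM against 337 CPM. The 7 ribosomal protein genes had log2 ratios from -0.92 to 0.21 with a median of -0.56, beside a median of -0.31 over all genes, and none passed. Of the 4 defense genes tested, Apid1 was at 68.2 CPM against 30.9 CPM, but at 13.7 CPM without the 40 nuclei of high LOC406144. Def1 was at 1132 CPM against 1297 CPM, and 1 of the 4 was past a fold of 4 lower. Defense genes carried under an identifier alone could not be matched, so this list may be incomplete. LOC406144 and LOC406142, with log2 ratios of 2.62 and 2.21, had no description here and were not assigned to it. Without the 40 nuclei, which were taken by LOC406144, these 2 genes were at 101 and 76.8 CPM. That was below the 170 and 253 CPM of the other barcodes, so the higher levels rest on those 40 nuclei.

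The ddH2O library held no counterpart that reached the same selection share. Its 400 barcodes of highest share, at 0.0568% to 0.591%, had a median of 3126 UMIs, and 398 of them held UMIs of at least 2 neuronal genes, as did 99.5% of all ddH2O barcodes. Hbg3 was at 18.1 CPM in them (27 UMIs) and at 9708 CPM in the Hbg3-rich nuclei of BRC, a ratio of 537 (369 to 815). Mrjp6 was at 97.8 CPM and 4756 CPM, Mrjp1 at 605 CPM and 2568 CPM, and Mrjp3 at 404 CPM and 338 CPM. The difference was not confined to the 400 nuclei. Over all kept ddH2O barcodes Hbg3 was at 20.7 CPM, against 2184 CPM in the BRC barcodes outside the 400, and Mrjp6 at 4.77 CPM against 1099 CPM. With 1 pool per condition, bromocriptine, the bees pooled, the dissection and the preparation cannot be told apart as sources of this difference.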

How the data were processed

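Single-nucleus RNA of pooled forager brains was analysed in 1 BRC and 1 ddH2O library. The deposited matrices hold UMI counts per gene and barcode, which the authors made with Cell Ranger (7.0.1 in the submitters' processing notes, 7.2.0 in the BRC header) on Amel_HAv3.1, without normalization. Totals were 76531513 and 77047419 UMIs, over 12635 and 12245 features.

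Barcodes with 200 to 5000 genes were kept (19945 and 19999). Counts were summed over groups of barcodes and scaled to CPM, with Poisson intervals (exact), exact conditional intervals for ratios and Clopper-Pearson intervals for shares, all at 95%. Genes needed 200 UMIs over the compared barcodes, and a count of 0 was set to a floor of 3 UMIs. No doublet caller was run and doublets were kept; an alternative left out Hbg3-rich nuclei with at least 2 neuronal genes. The computation was tested on simulated data.

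The barcodes and gene lists (alpha-glucosidase, Mrjp, yellow, secretory, ribosome, defense, cell types, chemosensory and odorant-binding proteins) were chosen with earlier results of these data known. Named were the selection genes, Hbg and Mrjp genes, list genes with at least 20 UMIs in the 400 nuclei, the 15 highest and 10 lowest ratios and the 5 genes most like the selection genes over 8 bins. Names of markers follow the study. RefSeq symbols carried no descriptions here, so lists planned by description were matched by symbol. Gox, Apisimin, alpha-amylase, fork head, CrebA, sage and Xbp1 gave no match. They may be present under an identifier alone, so the missing match does not show that they were low or absent. Alternatives were other rankings, filters, scalings, weights, thinning and comparison barcodes. Python 3.11.15 with numpy 2.4.6, scipy 1.17.1 and pandas 2.3.3 was used.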

Additional observations from a re-analysis of the deposited data

Results flagged for a closer look

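The limit of 5000 genes left 54 BRC barcodes and 1 ddH2O barcode out of every comparison, and 37 of the 54 (68.5%, 54.4 to 80.5) had at least 0.6% of their UMIs in the selection genes, 4 of them at or above the share of rank 400. In these 37 barcodes, which had a median of 45086 UMIs, Hbg3 was at 6217 CPM (6101 to 6334) and Mrjp6 at 2347 CPM, whereas the 13 left-out BRC barcodes with a share under 0.2% had Hbg3 at 203 CPM (166 to 246). They are listed because Hbg3 was high in data that no comparison used and not detected in the single left-out ddH2O barcode, which held 0 Hbg3 UMIs of 48627 (upper bound 75.9 CPM) and 38 UMIs of Mrjp6 (781 CPM).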

How the results depend on the processing

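The log2 ratio of Hbg3 over the other barcodes (2.15) was 2.17 without the UMIs of the selection genes, 2.57 with equal weight for each barcode, 2.44 under the filters of the study, 2.27 for the top 200, 2.26 for the top 800, 2.60 after thinning, 2.20 without nuclei of at least 2 neuronal genes and 2.46 under median-of-ratios scaling. In the same order the summed Mrjp genes (0.46) were at 0.48, 0.48, 0.92, 0.59, 0.61, 0.49, 0.51 and 0.77. The summed neuron and glia genes (-3.98) were at -4.30 with equal weight, -3.33 under the filters, -4.22 after thinning, -5.05 without nuclei of at least 2 neuronal genes and -3.67 under median-of-ratios scaling. Against other barcodes under a 0.2% share, chosen after seeing the data, the 3 ratios were 3.02, 0.72 and -4.33, and against the deep ones 4.47, 1.83 and -3.64. The log2 ratio of Hbg3 over ddH2O (9.07) was 10.4 after thinning, from 3 ddH2O UMIs, and 0 ddH2O barcodes reached the share of rank 400, so that alternative gave no value.

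The 39 higher genes became 213 with equal weight, 205 under the filters, 94 for the top 800, 139 after thinning, 87 under median-of-ratios scaling, 90 with 1 UMI as the only filter, 212 against low-share and 141 against deep low-share barcodes, where 903 were lower (1044 in all). A fold of 2 gave 378 higher and 2669 lower genes (3047 in all). The cause of these changes was not tested. The share with an Hbg3 UMI (98.8%) was 100% unthinned and 96.2% at 500 UMIs, and ranking by thinned counts shared 277 of the 400 nuclei. Of 57 named genes past a fold of 4, 12 lost it against deep low-share barcodes, 2 each in the top 200 and under median-of-ratios scaling, 1 under the filters and 0 elsewhere, and none of the 57 turned sign. Among all named genes, called or not, 9 turned sign against deep low-share barcodes, 6 under the filters, 4 each for the top 800 and against low-share barcodes, 3 under median-of-ratios scaling, 2 after thinning and 0 or 1 elsewhere. No paired analysis was possible because each condition had 1 library and the labels give no replicate numbers. Depth limits genes with few UMIs in the 400 nuclei.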
